A study of Mus musculus with 6 samples.

Results

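The genes described are the secreted effectors of group 2 innate lymphoid cells (ILC2s): the cytokines Il4, Il5, Il13, Il6, Il10, Il2, Il3, Csf2 and Lif, and amphiregulin (Areg), a growth factor. They were taken by gene symbol from the study's gene-level comparison, where all 10 were found among 39527 genes, and all 10 were among the 14961 genes that carry an adjusted p there. RNA was sequenced from ILC2s sorted from the lungs of mice given IL-33, an alarmin of epithelial origin, for 4 days. There were 3 samples of R5/+ mice with floxed LKB1 alleles (R5/+LKB1f/f, named KO) and 3 samples of R5/+ mice (named WT), each pooled from 3 to 4 mice. All animals therefore carried the R5 allele and all received IL-33. The labels do not spell out R5. In work on ILC2s the name is in general use for Red5, a reporter and Cre knock-in at the Il5 locus, but no source used here states that for these mice.

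ILC2s are tissue-resident lymphocytes without antigen receptors that answer epithelial alarmins by secreting type 2 cytokines. IL-5 recruits and sustains eosinophils, IL-13 drives mucus production and airway reactivity, and IL-4 shares a receptor chain with IL-13. Amphiregulin acts on the epidermal growth factor receptor (EGFR) and is known for its part in epithelial repair. Many cytokine mRNAs are short-lived, with AU-rich stretches in their 3′ untranslated regions that decay factors such as the zinc finger protein ZFP36 bind. LKB1, the kinase encoded by Stk11, activates AMPK and its relatives.

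The values are 1 mean, 1 log2 fold change and 1 standard error (SE) per gene, as the authors computed them. Columns of single-library values in the same table matched no sample label and are not used here, so that no value per sample, and no spread of a level, can be given. Which genotype stands on top of the fold change is not stated, and signs are given as deposited. Stk11, the gene floxed in KO, had a log2 fold change of -1.34 ± 0.30 (SE) per the authors' deposited table, and a negative sign below is the sign of Stk11. Called means an adjusted p below 0.05 over all tested genes, and intervals are 95% normal intervals from the SE. The p-values describe the spread between the libraries of the authors' fit, with the number of libraries in that fit not given in the sources used here. In bulk RNA, fewer producing cells and less RNA per cell cannot be told apart.

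The effector genes did not share a direction. Il4, Il2, Il3 and Lif were positive, Il13, Il6 and Il10 were negative, and Il5, Csf2 and Areg were not called. Of the 10 genes, 7 were called, 4 positive and 3 negative, while 24.5% of all tested genes were called, 11% positive and 13.5% negative. Among tested genes with a mean of at least 100 normalized counts, which all 10 exceeded, 32.8% were called. Calls with a difference of 2-fold or more numbered 5 among the 10 genes and made up 7.63% of all tested genes. The median log2 fold change of the 10 was 0.41, beside -0.0056 over all tested genes, and 7 lay above 0 and 3 below.

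The level, as the mean normalized count from the authors' deposited table per kilobase of exon, set Areg far above the rest. Areg stood at 22297 per kb, higher than 99.9% of tested genes. Csf2, which encodes the growth factor GM-CSF, stood at 6367 per kb, or 28.6% of the Areg level, and Il5 at 3605 per kb, or 16.2% of it. A middle group held Il4 at 1014, Lif at 891, Il6 at 690 and Il13 at 513 normalized counts per kb. The lowest levels were those of Il2 at 232, Il3 at 225 and Il10 at 159 normalized counts per kb. As deposited, none of the 3 most abundant effector genes was called, while all 7 of the less abundant genes were. This split did not hold without the trends on gene length and GC content, described below. Csf2 and Areg were then called and Il6 was not. Because the means carry no spread, which neighbours in this order differ in level was not tested.

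**Figure D1:**
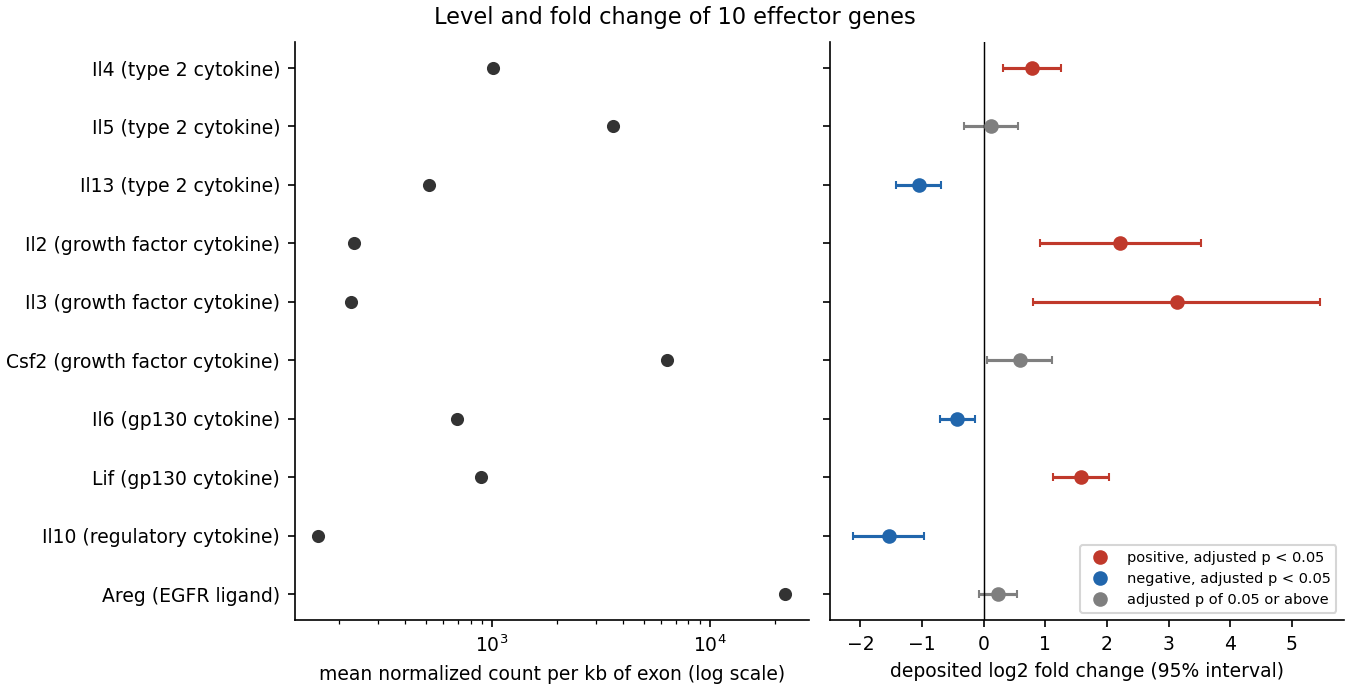
Left, level of each gene as mean normalized count per kb of exon on a log axis, 1 point per gene. Right, deposited log2 fold change with its 95% interval, red for positive and blue for negative genes with an adjusted p below 0.05 and grey for the others. Areg, Csf2 and Il5 have the highest levels and are grey, and the interval of Il3 is the widest.

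The type 2 cytokine genes Il4, Il13 and Il5 lie within one stretch of chromosome 11 and differed in sign. Il13 had a mean of 618.6 normalized counts and a log2 fold change of -1.06 ± 0.18 (SE), with an adjusted p of 3.85e-07 per the authors' deposited table. That is a 2.08-fold difference with the sign of Stk11, with an interval of 1.62 to 2.67. Il4 had a mean of 1244 normalized counts and a log2 fold change of 0.78 ± 0.24 (SE), with an adjusted p of 0.0076 per the authors' deposited table. The fold was 1.71 with an interval of 1.24 to 2.37, and the log2 intervals of Il4 (0.31 to 1.25) and Il13 (-1.41 to -0.70) lay on opposite sides of 0. Il5 had a mean of 5540 normalized counts and a log2 fold change of 0.12 ± 0.22 (SE), with an adjusted p of 0.752 per the authors' deposited table. Its interval spanned a fold of 0.80 to 1.47. A 2-fold difference either way lay outside this span, and only differences within it remained possible at this level of confidence. If R5 is the Il5 knock-in, 1 Il5 allele is altered in both genotypes, and the counting of reads from that allele was not tested.

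Il4 (mm10 chromosome 11, 53602982 to 53618669, minus strand) lies 12.7 kb from Il13 (53631324 to 53634702, minus strand), and Il5 (53720794 to 53725106, plus strand) 86.1 kb beyond Il13. Between Il13 and Il5 lies Rad50, a DNA repair gene whose body holds a known control region of the cluster. Rad50 had a log2 fold change of -0.34 ± 0.11 (SE) and was called negative per the authors' deposited table. Kif3a, a kinesin motor gene whose end lies 1.01 kb from Il4, was also called negative at -0.45 ± 0.13 (SE) per the authors' deposited table. Irf1, an interferon response factor 44.9 kb from Il5, was positive at 0.36 ± 0.14 (SE) per the authors' deposited table. Il4 thus carried the opposite sign to the genes on either side of it. Over all effector genes, 23 other protein-coding genes lay within 100 kb, of which 16 were tested, 4 positive and 4 negative, with a median log2 fold change of -0.18. By comparison, 11% of all tested genes were positive and 13.5% negative.

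**Figure D2:**
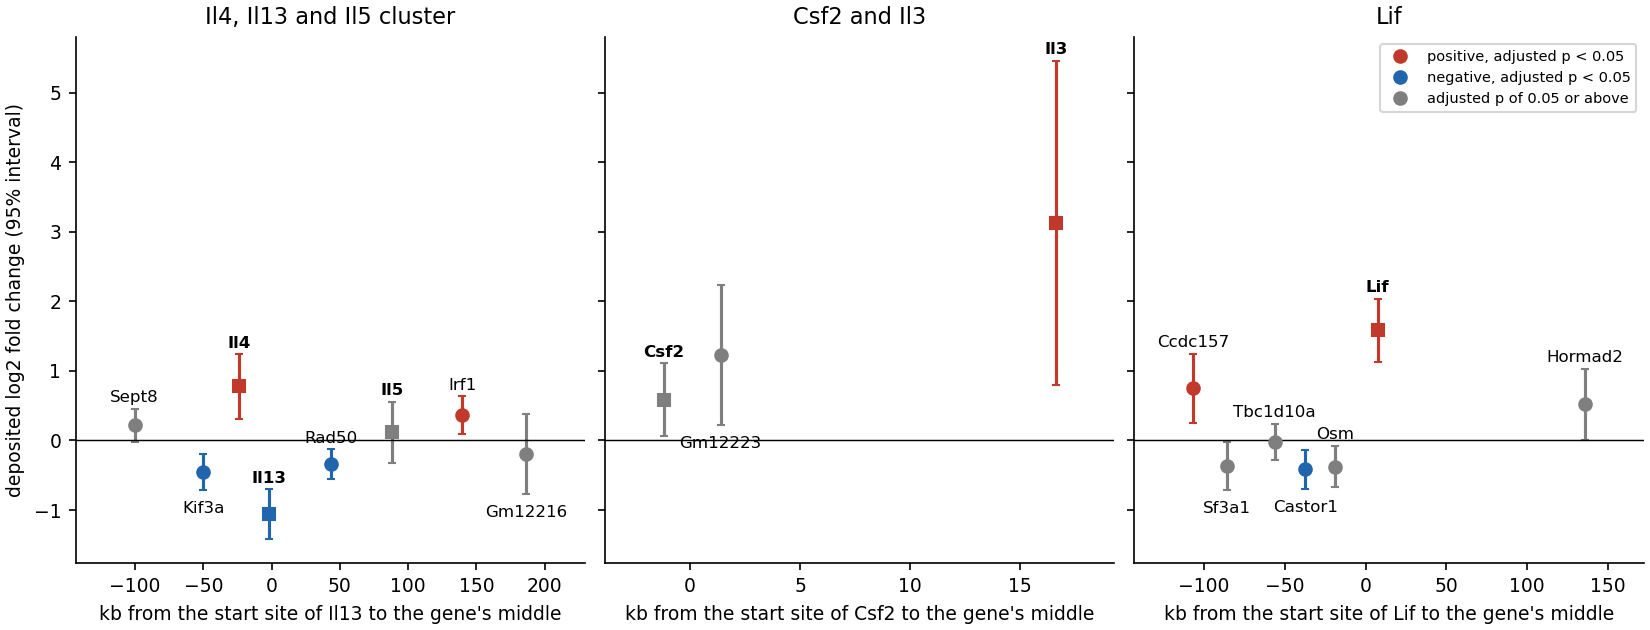
Deposited log2 fold change with its 95% interval against distance in kb, for tested protein-coding or overlapping genes within 100 kb of the Il4, Il13 and Il5 cluster, of Csf2 and Il3, and of Lif. Squares with bold names are effector genes and circles their neighbours, coloured by call. Il4 lies above 0 between Kif3a and Il13, which lie below 0, and Lif lies above its neighbour Osm.

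The promoters of the neighbouring pair with opposite signs, Il4 and Il13, are shown because these genes share a locus and not a sign. The windows run from 250 bases before to 50 bases after the annotated start (RefSeq, GRCm38.p6, 5′ to 3′ on the gene's strand). Capitals mark matches, on either strand, to the NFAT core GGAAAA and the GATA motif AGATAA, and none of these matches overlap.
Il4, chr11:53618616-53618915, minus strand: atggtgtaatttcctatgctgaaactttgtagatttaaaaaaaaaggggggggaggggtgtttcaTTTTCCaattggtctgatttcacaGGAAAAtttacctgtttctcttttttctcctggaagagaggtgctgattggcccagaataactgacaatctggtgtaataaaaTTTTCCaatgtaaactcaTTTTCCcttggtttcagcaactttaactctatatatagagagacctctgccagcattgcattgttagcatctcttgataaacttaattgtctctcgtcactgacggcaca
Il13, chr11:53634653-53634952, minus strand: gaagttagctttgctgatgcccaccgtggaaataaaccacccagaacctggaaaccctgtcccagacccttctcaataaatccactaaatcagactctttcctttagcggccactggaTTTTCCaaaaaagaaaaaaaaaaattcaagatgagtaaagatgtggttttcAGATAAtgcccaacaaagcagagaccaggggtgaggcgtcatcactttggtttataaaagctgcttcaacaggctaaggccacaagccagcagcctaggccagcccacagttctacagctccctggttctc

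The Il4 window held 4 matches to GGAAAA, and 23.4% of all 32851 promoter windows held at least 1. The second annotated Il4 start, downstream of this one, had none in its window. The Il13 window held 1 match to GGAAAA and 1 to AGATAA, and 11.2% of all windows held AGATAA. Promoter windows were found for 9 of the 10 genes, and 4 of these genes had a match to GGAAAA and 3 to AGATAA. Genes with GGAAAA included positive (Il4, Il2) and negative (Il13, Il6) genes, and a link between these letters and the sign was not tested.

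Of the growth factor cytokines Il2, Il3 and Csf2, Il3 and Il2 had the highest fold changes and the widest errors of the 10 genes. Il2, the T cell growth factor, had a mean of 265.9 normalized counts and a log2 fold change of 2.21 ± 0.67 (SE), with an adjusted p of 0.0064 per the authors' deposited table. The fold was 4.64 with an interval of 1.87 to 11.5. Il3, a growth factor of mast cells and basophils, had a mean of 141.4 normalized counts and a log2 fold change of 3.13 ± 1.19 (SE), with an adjusted p of 0.0382 per the authors' deposited table. Its fold of 8.74 had an interval of 1.73 to 44.0. The direction of both genes was called, but the size of neither was well determined. Csf2 had a mean of 5094 normalized counts and a log2 fold change of 0.59 ± 0.27 (SE), with an adjusted p of 0.0969, and was not called per the authors' deposited table.

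The SE of Il3 was larger than that of 99.0% of the 1670 genes whose mean lay within 1.5-fold of its own, whose median SE was 0.277. For Il2 the share was 96.8% of 2027 genes, with a median SE of 0.219. The same held for Csf2 (97.4%), Il4 (95.8%), Lif (95.4%) and Il5 (94.5%), so that 6 of the 10 effector genes were above the 94th percentile for their level. Il10 (81.4%), Il13 (63.9%), Areg (62.2%) and Il6 (46.1%) were nearer to the middle. The 6 genes with wide errors were the 4 positive genes and 2 of those not called, and none of the negative genes was among them. Whether a single library carries these errors was not tested.

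**Figure D3:**
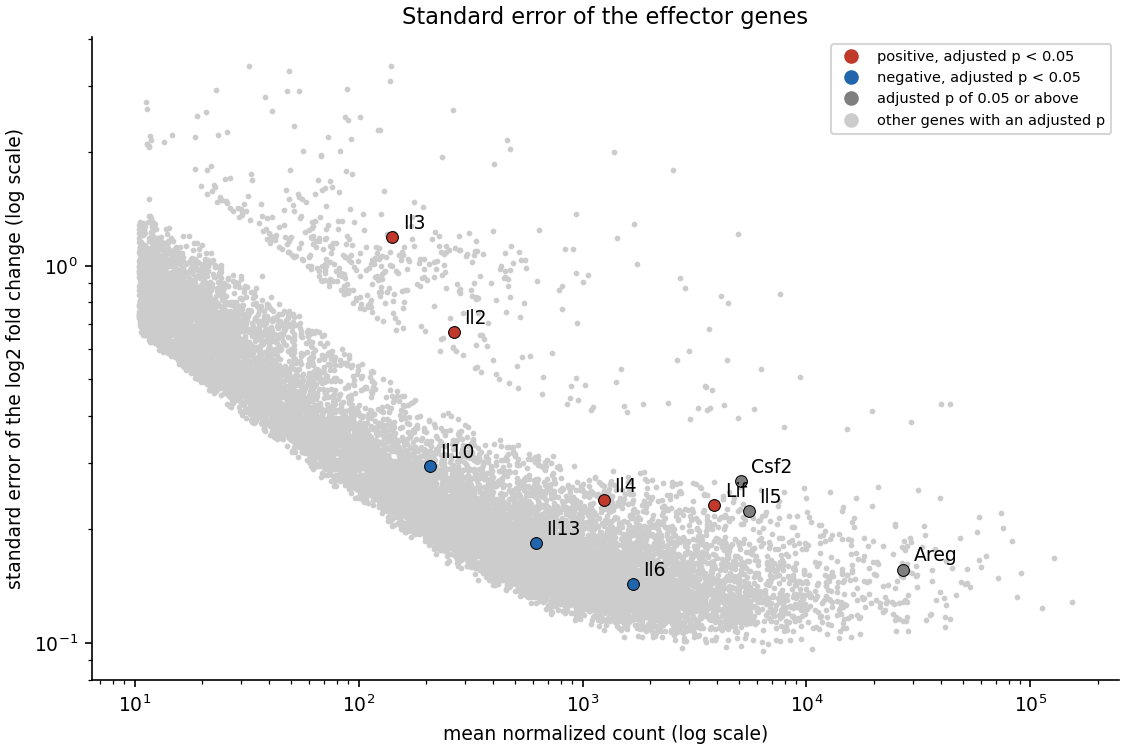
Standard error of the log2 fold change against mean normalized count, both on log axes, for all tested genes (pale grey) and the effector genes (large points, coloured by call). Il3 and Il2 stand above the main band of genes of like mean, and Il6 and Il13 lie within it.

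Il3 and Csf2 are neighbours, 15.6 kb apart on chromosome 11 (Il3 at 54265303 to 54267277 and Csf2 at 54247271 to 54249667, both on the minus strand). Both fold changes were above 0, with intervals that overlap (0.79 to 5.46 for Il3 and 0.06 to 1.11 for Csf2). Csf2 shares 96 exonic bases with the antisense gene Gm12223, which had a log2 fold change of 1.23 ± 0.51 (SE) at a mean of 28.1 normalized counts per the authors' deposited table. The gene body of Il2 (chromosome 3, 37120523 to 37125959) overlaps that of Adad1 on the other strand, without shared exonic bases. Adad1, which is known for its expression in testis, had a log2 fold change of 2.20 ± 0.75 (SE) at a mean of 32.5 normalized counts per the authors' deposited table, close to the value of Il2. The library kit named in the labels does not mark strand. Over the shared exonic bases, reads of Csf2 and Gm12223 may therefore not have been separated. Il2 and Adad1 share no exonic bases, and whether reads of one entered the count of the other was not tested. Il5 also overlaps an antisense gene, Gm12214, over 417 exonic bases.

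The gp130 cytokines Lif and Il6, which signal through the same receptor subunit, had opposite signs. Lif, the leukemia inhibitory factor, had a mean of 3877 normalized counts and a log2 fold change of 1.58 ± 0.23 (SE), with an adjusted p of 9.15e-10 per the authors' deposited table. The fold was 3.00 with an interval of 2.19 to 4.11, and this was the smallest adjusted p among the effector genes. Il6, a pleiotropic inflammatory cytokine, had a mean of 1676 normalized counts and a log2 fold change of -0.43 ± 0.14 (SE), with an adjusted p of 0.0166 per the authors' deposited table. The fold was 1.34 in the negative direction, with an interval of 1.11 to 1.63. Osm, the gp130 cytokine gene 16.5 kb from Lif, had -0.37 ± 0.15 (SE) with an adjusted p of 0.0556 per the authors' deposited table and was not called. Of 7 gp130 ligand genes, 4 were tested, and Lif and Il6 were the called ones, beside 24.5% called among all tested genes. The median of the 4 was -0.03, and it turned to 0.0074 when fold changes were centred on the most abundant 25% of genes and to 0.079 without length and GC trends.

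The promoters of Lif and Il6 are given for this pair, with matches to the AP-1 motif TGANTCA and to GGAAAA in capitals.
Lif, chr11:4257318-4257617, plus strand: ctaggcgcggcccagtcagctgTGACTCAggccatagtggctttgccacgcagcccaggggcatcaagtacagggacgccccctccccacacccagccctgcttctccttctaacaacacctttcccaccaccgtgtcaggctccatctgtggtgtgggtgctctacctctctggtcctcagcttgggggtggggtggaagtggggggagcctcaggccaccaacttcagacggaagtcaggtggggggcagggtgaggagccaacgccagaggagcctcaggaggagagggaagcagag
Il6, chr5:30012864-30013163, plus strand: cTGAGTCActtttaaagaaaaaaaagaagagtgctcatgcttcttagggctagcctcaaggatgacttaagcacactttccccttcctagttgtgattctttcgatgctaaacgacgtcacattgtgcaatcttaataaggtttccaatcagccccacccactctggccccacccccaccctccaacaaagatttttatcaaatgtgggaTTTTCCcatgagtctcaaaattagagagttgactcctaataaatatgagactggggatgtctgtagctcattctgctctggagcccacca
Each window held 1 match to TGANTCA, which 7.81% of all windows hold, and none of the other effector genes with a window had one. Il10 was not among the 9 genes searched. The Il6 window also held 1 match to GGAAAA.

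Il10, an anti-inflammatory cytokine made by a subset of activated ILC2s, was the most negative of the 10. It had a mean of 208.7 normalized counts and a log2 fold change of -1.54 ± 0.29 (SE), with an adjusted p of 4.6e-06 per the authors' deposited table. The fold was 2.92 in the negative direction, with an interval of 1.95 to 4.35. Its receptor genes carried the other sign, with Il10ra, the ligand-binding chain, at 1.27 ± 0.25 (SE) and Il10rb at 0.48 ± 0.14 (SE) per the authors' deposited table. Mapkapk2, a kinase gene of the p38 pathway 28.7 kb from Il10 on chromosome 1, had -0.36 ± 0.26 (SE) per the authors' deposited table and was not called.

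Areg, the most abundant effector gene, had a mean of 27091 normalized counts and a log2 fold change of 0.24 ± 0.16 (SE), with an adjusted p of 0.285 per the authors' deposited table. Only 62 tested genes had a higher mean. The interval of the fold, 0.95 to 1.46, holds no difference as well as modest positive ones and no 2-fold difference. Of 8 genes for EGFR ligands and the sheddase that releases them, 6 were tested, 3 were positive and 0 negative, with a median of 0.53. The share of positive calls over all tested genes was 11%. All 6 lay above 0, also after removal of length and GC trends. Centring on the median of all tested genes (-0.0056) or of the most abundant genes (-0.037) raises every fold change. The centrings therefore could not bring a positive value below 0 and do not test this. Btc, the ligand betacellulin, had 3.49 ± 0.66 (SE) at a mean of 26.2 normalized counts, and Tgfa had 1.61 ± 0.55 (SE) at 27.2 per the authors' deposited table. Adam17, the sheddase, had 0.39 ± 0.12 (SE) at a mean of 2053 normalized counts per the authors' deposited table. Per kilobase, Btc stood at 5.79 normalized counts, against 22297 for Areg.

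The Areg promoter is shown because, among the 9 effector genes with a promoter window, which leave out Il10, it alone held a full cyclic AMP response element, TGACGTCA (capitals), the motif of CREB and its relatives. The letters occur in 1.79% of all promoter windows.
Areg, chr5:91139349-91139648, plus strand: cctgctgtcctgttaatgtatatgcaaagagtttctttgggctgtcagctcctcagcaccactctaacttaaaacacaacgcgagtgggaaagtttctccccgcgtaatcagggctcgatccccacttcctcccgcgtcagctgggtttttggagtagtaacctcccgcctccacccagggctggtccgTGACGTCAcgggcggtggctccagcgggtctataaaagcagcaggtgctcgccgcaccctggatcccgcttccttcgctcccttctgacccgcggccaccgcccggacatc
Crem, a CREB family gene, was positive at 0.71 ± 0.16 (SE) per the authors' deposited table, while Areg was not called.

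**Figure D4:**
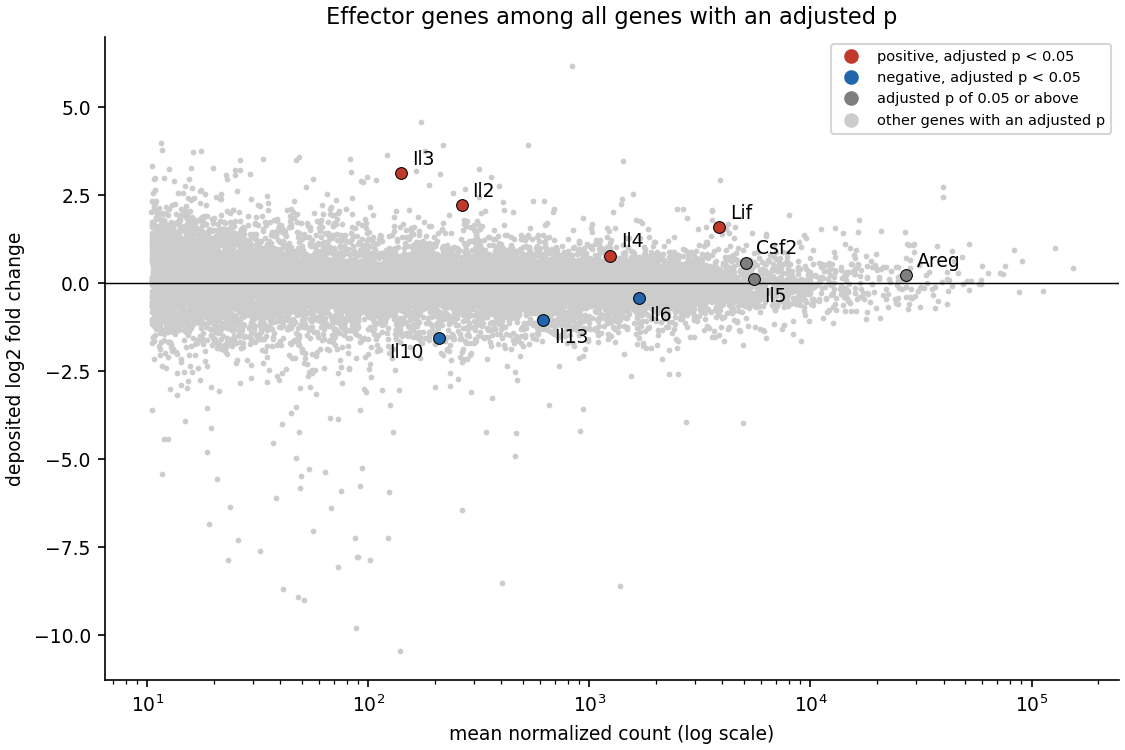
Deposited log2 fold change against mean normalized count (log axis) for all 14961 tested genes in pale grey, with the effector genes as large points coloured by call. Il3, Il2 and Lif are the highest of the 10, Il10 and Il13 the lowest, and Areg and Il5 lie near 0.

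AU-rich letters were common in the 3′ untranslated regions of the effector genes. The nonamer TTATTTATT, a core of AU-rich elements, was present in the 3′ untranslated region of 5 of the 10 genes, and in 7.35% of 12934 tested protein-coding genes. The pentamer ATTTA occurred at a median of 10.97 per kb in the 10 genes and 1.20 per kb over all these genes. Csf2 had the highest density of the 10, with 28.4 per kb and 4 nonamers, and Lif the lowest, with 2.20 per kb. The density of Il4 rests on 2 pentamers in 104 bases, and that of Il3 on 1 in 101 bases. One site of 30 bases is shown for each gene with a nonamer (GENCODE M21, mm10, 5′ to 3′ on the gene's strand, nonamers in capitals).
Csf2, chr11:54247328-54247357, minus strand: ttttaaatatTTATTTATTTATTTATTtat
Il2, chr3:37120897-37120926, minus strand: ttatctgaaaTTATTTATTatattgaattg
Il13, chr11:53631740-53631769, minus strand: cttcttgatcTTATTTATTatggttgtgtg
Lif, chr11:4272039-4272068, plus strand: aaaggggcctTTATTTATTatttaaaactt
Areg, chr5:91148382-91148411, plus strand: tatttaagtgTTATTTATTttatagctcat

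Genes with a nonamer were positive (Il2, Lif), negative (Il13) and not called (Csf2, Areg). By density of ATTTA, Lif, at 2.20 per kb, was positive, Il6, at 14.1 per kb, negative and Il4, at 19.2 per kb, positive. A link between AU-rich letters and the sign was not tested. Among 11 genes for cytokine mRNA decay and stability, 5 were positive and 2 negative, with a median log2 fold change of 0.35. All 11 had a mean above 100 normalized counts, and 32.8% of tested genes with a mean of at least 100 were called. Zfp36 had 0.88 ± 0.19 (SE) and its relative Zfp36l1 1.39 ± 0.22 (SE), while the AU-rich binding protein gene Khsrp had -0.68 ± 0.20 (SE) per the authors' deposited table. After removal of length and GC trends, 3 of the 11 were positive and 2 negative.

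Of 17 receptor genes for these factors, 16 were tested, 3 were positive and 1 negative, with a median log2 fold change of 0.18. That number of calls lies near the 24.5% of all tested genes. The positive genes were Il10ra, Il10rb and Il2rg, the common gamma chain, which had 0.45 ± 0.14 (SE) at the highest mean of the list, 11190 normalized counts per the authors' deposited table. The negative gene, chosen after its value was seen, was Il2rb at -0.53 ± 0.18 (SE) per the authors' deposited table. Il4ra, the chain shared by the IL-4 and IL-13 receptors, had 0.28 ± 0.21 (SE) per the authors' deposited table and was not called.

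Transcription factors that act on type 2 cytokine genes also went both ways. Of 22 genes, all tested, 7 were positive and 3 negative, with a median of 0.18. All 22 had a mean above 100 normalized counts, and 32.8% of tested genes with a mean of at least 100 were called. Gata3, the ILC2 lineage factor that binds the type 2 cytokine locus, had 0.63 ± 0.16 (SE) and the AP-1 subunit Fos 1.05 ± 0.18 (SE), while Batf, an AP-1 family factor, had -0.62 ± 0.14 (SE) per the authors' deposited table. Junb, the most abundant gene of the list, had 0.48 ± 0.20 (SE) with an adjusted p of 0.0642 per the authors' deposited table. Il4 therefore had the sign of Gata3 and Il13 the other. Immediate early genes, which respond to cell handling as well as to stimulation, were positive in 9 of 13 and negative in 0, with a median of 0.88 and Jun at 1.45 ± 0.16 (SE) per the authors' deposited table. All 13 had a mean above 100 normalized counts, the range in which 32.8% of tested genes were called. The called immediate early genes carried the sign of Il2, Il3, Il4 and Lif, and their part in these results was not tested.

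**Figure D5:**
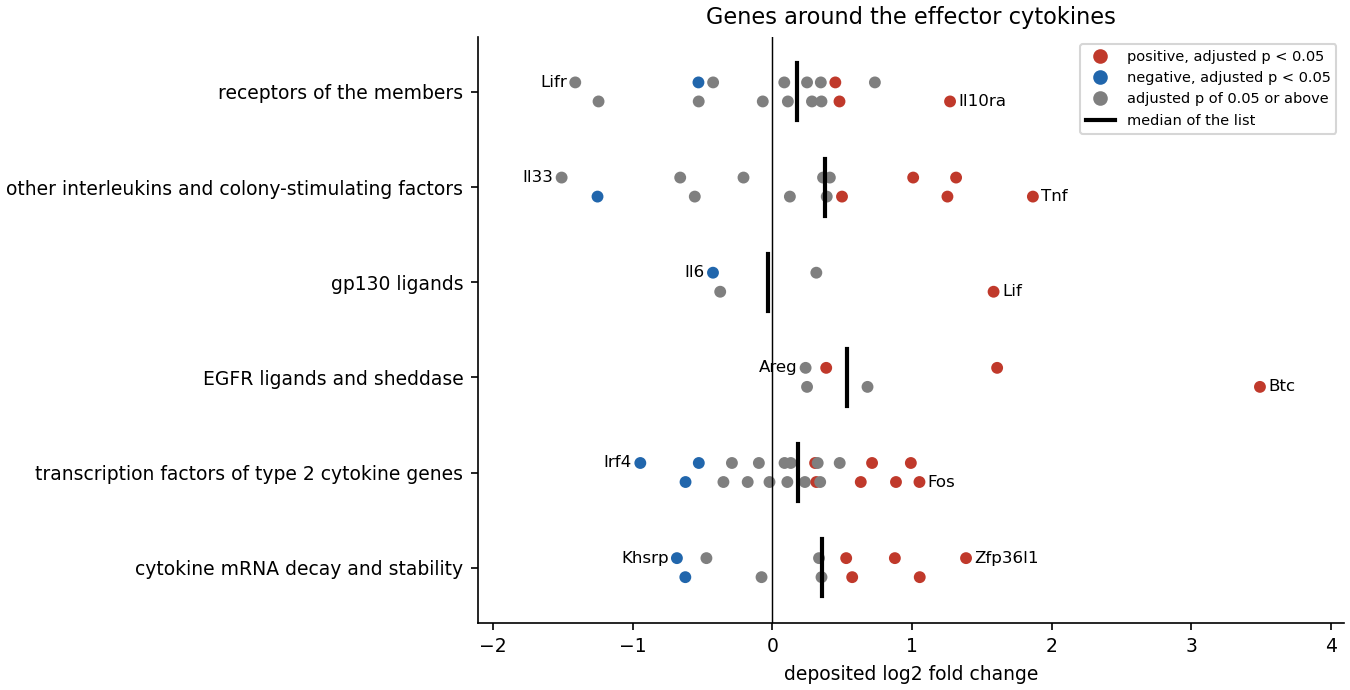
Deposited log2 fold change of each tested gene in 6 lists around the effector genes, 1 point per gene, coloured by call, with the list's median as a black bar and its lowest and highest gene named. The EGFR ligand list lies above 0, and the other lists span 0.

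Markers of the sorted cell type were abundant, and those of other cells were detected beside them. The 12 ILC2 markers summed to 51852 normalized counts per kb, with Gata3 the most abundant by mean, and 4 were positive and 2 negative, with a median log2 fold change of 0.25. All 12 had a mean above 100 normalized counts, the range in which 32.8% of tested genes were called. Kit, the stem cell factor receptor, had 1.53 ± 0.16 (SE) and Crlf2, a chain of the TSLP receptor, 0.90 ± 0.14 (SE), while Thy1 had -1.98 ± 0.75 (SE) and Klrg1 -0.44 ± 0.12 (SE) per the authors' deposited table. The 11 T cell markers summed to 1358, the 13 basophil, mast cell and eosinophil markers to 1081, the 13 myeloid and dendritic cell markers to 4749, the 8 B and plasma cell markers to 1167 and the 9 markers of ILC1s, NK cells and ILC3s to 2871 normalized counts per kb. Epithelial, endothelial and fibroblast markers summed to 15721 per kb, and no marker of any list had a mean of 0. Scgb1a1 (7654 per kb) and Sftpc (7344 per kb) made up most of that sum. Gzma, at 2722 per kb, was most of the ILC1, NK and ILC3 sum, and Lyz2, at 3396, most of the myeloid sum. Cpa3, at 717 per kb, was most of the basophil, mast cell and eosinophil sum. T cells and basophils also make Il4, Il2, Il3 and Il13. The T cell list had 1 positive and 2 negative of 10 tested markers. The joint list of basophil, mast cell and eosinophil markers had 1 positive and 1 negative of 8 tested markers. The share called among all tested genes was 24.5%. Among T cell markers, Trat1 had -2.65 ± 0.35 (SE), Cd3g -0.66 ± 0.19 (SE) and Themis 1.07 ± 0.37 (SE) per the authors' deposited table, and the median of the list was 0.16. Among the others, the basophil and mast cell gene Cd200r3 had 2.91 ± 0.54 (SE) and the eosinophil and basophil receptor gene Ccr3 -1.45 ± 0.38 (SE) per the authors' deposited table. In that list 6 of the 8 tested markers lay below 0, with a median of -0.40. The basophil protease gene Mcpt8 had a mean of 3.31 normalized counts and no adjusted p per the authors' deposited table. Among B and plasma cell markers 4 of 7 were called, and among myeloid markers 1 of 12. Lung structural cells had 1 of 10 called, and ILC1, NK and ILC3 cells 1 of 5. All of these calls were negative, beside 13.5% called negative among all tested genes. All 7 tested B and plasma cell markers lay below 0, with log2 fold changes from -3.85 to -0.55. So did 9 of the 12 tested myeloid markers, with a median of -0.62, and 9 of the 10 tested lung structural markers, with a median of -0.91. The B and plasma cell, myeloid and structural lists thus leaned to the sign of Il13, Il6 and Il10. In the ILC1, NK and ILC3 list the called gene was Gzma, at -3.94 ± 0.93 (SE) per the authors' deposited table. There 4 of the 5 tested markers lay above 0, with a median of 0.42. The part of these cells in the effector values was not tested.

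The comparison was also taken without the trends of the fold change on gene length and GC content. Their removal moved all 10 upward, by 0.03 for Lif to 0.45 for Csf2 on the log2 scale. Under it 6 were positive and 2 negative, against 4 and 3 as deposited. Csf2 then had 1.04 with an adjusted p of 0.0012 and Areg 0.61 with an adjusted p of 0.0011, by a normal test with Benjamini-Hochberg adjustment over 13036 protein-coding genes. Il6 had -0.19 with an adjusted p of 0.386 by the same test, and no gene changed sign.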

How the data were processed

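The labels name SMART-Seq HT for the cDNA and TruePrep V2 for the libraries. HISAT2, Cufflinks and mm10 are listed, per the submitters' processing notes. Counting tool, annotation and use of strand: not given in the sources used here. Per the file headers, the authors' table holds the log2 fold change, its error (SE) and score, the p-value before and after adjustment, and the mean of normalized counts (a signal over the libraries of their fit). The column names are those of a DESeq2 results table, per the file headers. The deposited score equalled the log2 fold change over its standard error to within 2.4e-07, and the deposited adjusted p-value a Benjamini-Hochberg adjustment to within 7.6e-07. The depth of each library is unknown here, and precision is that of the deposited standard error.

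Single-library values in 12 columns, which bear 6 names, could be tied to no label. Though seen on inspection of the table, they entered no result, and the authors' comparison replaced the count or limma fit that had been planned. The genes, lists and tests were chosen with earlier results of these data known. Named genes were the 10 effector genes, Stk11, the 3 smallest p-values and the most abundant gene of each list, and protein-coding genes within 100 kb. Il2rb, Mcpt8, Il4ra, Thy1, Klrg1, Scgb1a1, Tnf, Il17a, Tgfb1, Il9, the overlapping antisense genes and the genes labelled at the ends of the list plot were named after their values were seen.

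Coordinates and exonic lengths came from GENCODE M21, in which 39237 identifiers (99.3%) were found. AU-rich letters were counted in the 3′ untranslated region of the transcript with the longest coding part. Lowess trends (fraction 0.3) of the fold change on log2 exonic length and GC content were removed in turn. Tested on simulated data (14961 genes with their deposited errors, 200 of them changed), the call rule recovered 13.2% at a log2 change of 0.5, 58.8% at 1 and 80.5% at 2. In the deposited comparison 3668 genes were called, and with more calls the adjustment admits larger p-values. The recovered shares are therefore those of the simulated setting and not of the data. Software was statsmodels 0.14.6, scipy 1.17.1, pandas 2.3.3, matplotlib 3.10.9 and numpy 2.4.6, under Python 3.11.15.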

Additional observations from a re-analysis of the deposited data

How the results depend on the processing

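No paired analysis was possible because the single-library columns matched no label, and for the same reason the planned count models, the low-count filter and the omission of single replicates were not run. The 10 effector genes kept their sign under the 3 rescalings, which are both centrings and the removal of length and GC trends. Only the removal of trends could have changed a sign. The centrings subtract medians of -0.0056 and -0.037, while the smallest fold change in size was 0.12 (Il5). Filters and readjustments leave the fold change as it is. Over all of these, 62 gene values kept their side of the threshold, 6 lost the call and 2 gained it. A Benjamini-Yekutieli adjustment, which is stricter by construction, left 3 genes called, 1 positive (Lif) and 2 negative (Il13 and Il10), with adjusted p values of 0.065 for Il2, 0.0779 for Il4, 0.169 for Il6 and 0.39 for Il3. Adjustment over all genes with a p-value, more genes by construction, gave Il3 0.0981 and left 6 called. Without length and GC trends, Il6 was not called and Csf2 and Areg were. At an adjusted p below 0.01, 5 genes were called, and the called genes of the receptor list numbered 2, of the gp130 list 1 and of the decay list 4, against 4, 2 and 7. Without length and GC trends the gp130 list had 1. Levels below about 100 normalized counts, as for Btc or Adad1, are low, and their errors wide.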

Other observations

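Other interleukin and colony-stimulating factor genes were measured beside the 10. Of 27 genes, 14 were tested, 5 were positive and 1 negative, with a median log2 fold change of 0.38, and the 13 others had no adjusted p. Over all tested genes, 11% were positive and 13.5% negative. Ebi3, a subunit shared by IL-27 and IL-35, had 1.32 ± 0.19 (SE), Csf1, the macrophage growth factor, 1.25 ± 0.27 (SE) and Il15 1.01 ± 0.26 (SE) per the authors' deposited table. Tnf had 1.87 ± 0.50 (SE) and Tgfb1 0.50 ± 0.19 (SE), and Il17a, the negative gene, -1.25 ± 0.43 (SE) at a mean of 90.2 normalized counts per the authors' deposited table. Il16, the most abundant of the list, had 0.39 ± 0.16 (SE) with an adjusted p of 0.0539 per the authors' deposited table. Il9, a cytokine of activated ILC2s, had a mean of 5.08 normalized counts and no adjusted p per the authors' deposited table. Without length and GC trends the list had 5 positive and 0 negative genes.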
